A study of Macaca mulatta with 6 samples.

Results

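The genes described here encode the enzymes and regulators by which a cell makes cholesterol and fatty acids. They were chosen by symbol: 31 genes were listed, and all 31 were found among the 28536 genes of the count table. The libraries come from tracheal tissue of Macaca mulatta (rhesus monkey), with 3 libraries in each of 2 groups. Control animals received normal saline, and the other group received a tracheal lubricant with an Oxy@Lipo/Gel coating during endotracheal intubation under general anaesthesia. Whether the controls were intubated or anaesthetised is not said, and neither are age, sex and strain. Replicates are called biosamples, with no word on whether they are different animals. The p-values therefore rest on the spread between samples, and that spread may not be one between animals. The series set out to find molecular targets of injury from intubation, and the comparison asks how the airway wall differed between the groups.

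Cholesterol is built from acetyl-CoA by the mevalonate arm, which ends in farnesyl diphosphate, and by a sterol arm that joins 2 such units into squalene, closes the ring and trims it. Both arms, and much of fatty acid synthesis, are switched on by the SREBP transcription factors, encoded by SREBF1 and SREBF2. SREBPs are made as membrane proteins of the endoplasmic reticulum. The escort SCAP carries them to the Golgi to be cut and released when sterols are scarce, and the INSIG proteins hold SCAP back when sterols are plentiful. SREBP-2 chiefly drives the cholesterol genes, and the SREBP-1c form chiefly the fatty acid genes. In the airway wall these lipids serve the membranes of surface, gland and muscle cells and the fat stores of adipocytes.

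Library totals ran from 17097177 to 23405294 counts. Markers of tracheal tissue were present in every library, with FOXJ1 of multiciliated cells at 121 to 1024 CPM and KRT5 of basal cells at 576 to 3023 CPM (CPM, the counts scaled to library size with TMM factors, here and below). A pair of control libraries stood apart. In control replicate 2 a single gene took 19.7% of all counts, against 7.73% to 10.4% in the others. Control replicate 3 held the thyroid gene TG at 4698 CPM, against 4.26 to 6.79 CPM elsewhere. In tissue of this kind, fewer cells of a type and less RNA per cell cannot be told apart.

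No single synthesis gene passed the test over all genes, and the genes differed in both directions. LSS, HMGCS1, INSIG1 and SREBF1 measured 1.66 to 1.82-fold higher in the Oxy@Lipo/Gel group with no overlap between the groups. Within the same cholesterol arms PMVK, HSD17B7, EBP and NSDHL measured lower, also with no overlap, and MVK and MVD had log2 fold changes of -0.05 and -0.07. The fatty acid desaturases FADS1 and FADS2 had the largest differences. In the edgeR quasi-likelihood test with Benjamini-Hochberg adjustment, 0 of 31 genes had an adjusted p under 0.05, where 1.54% of the 18676 genes tested did. The adjusted p of the 31 ran from 0.0677 for LSS to 0.898 for MVK. All 31 had passed the filter on low counts.

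At an unadjusted p under 0.05 edgeR held 8 of the 31 as higher, or 25.8%, where 10.7% of all tested genes were. It held 4 as lower, or 12.9%, where 12.6% of all tested genes were. Counted by overlap, the 3 Oxy@Lipo/Gel libraries lay above all controls for 8 genes (25.8%, against 12.2% of all tested genes). They lay below all controls for 6 genes (19.4%, against 17.7%). The shares on the lower side were thus close to those of all genes. The median log2 fold change of the 31 was 0.27, and -0.04 for all tested genes, with 20 of the 31 above 0. That median was 0.14 with control replicate 2 left out and 0.10 with Oxy@Lipo/Gel replicate 1 left out. The tool DESeq2, which called 13.3% of all tested genes, called 7 of the 31. It called SREBF1, INSIG1, HMGCS1, LSS, FADS1 and FADS2 higher (19.4%, against 7.47% of all tested genes) and HSD17B7 lower (3.23%, against 5.87%).

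**Figure D1:**
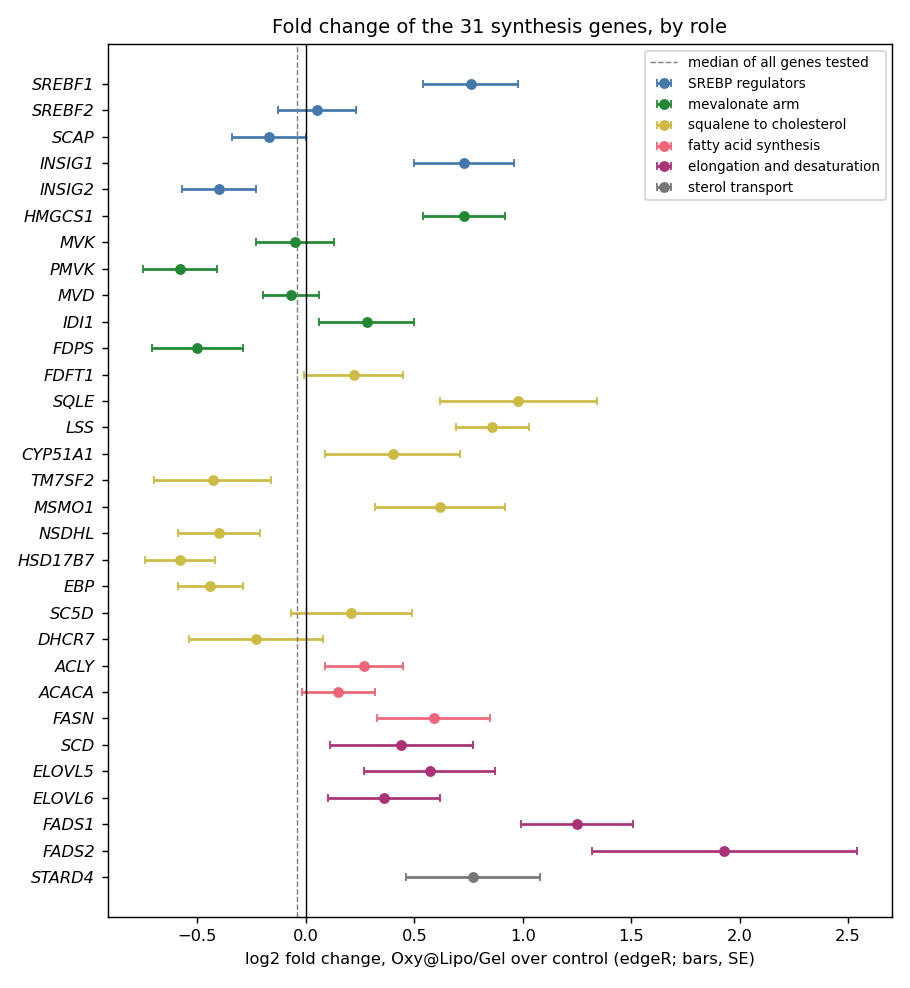
Log2 fold change of each of the 31 genes (x axis, edgeR, Oxy@Lipo/Gel over control, 3 libraries each), with bars of 1 SE, ordered and coloured by role; the dashed line is the median of all tested genes (-0.04). FADS2 (1.93) and FADS1 (1.25) lie farthest to the right and HSD17B7 and PMVK (both -0.58) farthest to the left.

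The regulators of the pathway differed from one another. SREBF1, which encodes SREBP-1, measured 141, 177 and 112 CPM in control replicates 1, 2 and 3 and 276, 229 and 222 CPM in Oxy@Lipo/Gel replicates 1, 2 and 3. The lowest Oxy@Lipo/Gel library thus lay above the highest control, and the log2 fold change was 0.76 ± 0.22 (SE; edgeR adjusted p = 0.129). SREBF2, which encodes SREBP-2, measured 212, 201 and 175 CPM in the controls and 227, 202 and 177 CPM in the Oxy@Lipo/Gel group. Its groups overlapped almost wholly, with a log2 fold change of 0.05 ± 0.18 (edgeR adjusted p = 0.896). SCAP, the escort, measured 140 ± 22.1 CPM in the controls and 125 ± 1.76 CPM in the Oxy@Lipo/Gel group (mean ± SD, n = 3 each, here and below). Its log2 fold change of -0.17 was -0.04 without control replicate 2.

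The paired brakes of the pathway lay on opposite sides. INSIG1, itself a target of SREBPs, measured 13.4, 15.9 and 18.9 CPM in the controls and 33.4, 26.0 and 20.8 CPM in the Oxy@Lipo/Gel group. No Oxy@Lipo/Gel library was as low as a control, though replicate 3 lay close, and the log2 fold change was 0.73 ± 0.23 (edgeR adjusted p = 0.140). INSIG2, which is not a classical SREBP target, measured 15.4, 15.1 and 16.4 CPM in the controls and 10.4, 12.6 and 12.6 CPM in the Oxy@Lipo/Gel group. These groups did not overlap either, in the other direction (log2 fold change -0.40 ± 0.17, edgeR adjusted p = 0.210).

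Ratios taken within a library do not depend on how libraries are scaled, and 3 were computed, chosen after the values were seen. The count ratio of INSIG1 to INSIG2, not corrected for gene length, was 0.870, 1.05 and 1.15 in the controls and 3.22, 2.07 and 1.65 in the Oxy@Lipo/Gel group. The ratio of SREBF1 to SREBF2 was 0.666, 0.881 and 0.641 in the controls and 1.21, 1.13 and 1.26 in the Oxy@Lipo/Gel group. Neither ratio overlapped between groups, with log2 differences of 1.13 and 0.73. Each had p = 0.1 in a two-sided exact permutation test, the smallest value that 3 libraries against 3 can give. After Benjamini-Hochberg adjustment over the 3 ratios it was 0.15. With INSIG1 above and INSIG2 below all controls, their ratio could not overlap, so its p was fixed beforehand. The adjustment leaves out the other pairs that could have been picked from the values, so these p-values add no support.

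**Figure D2:**
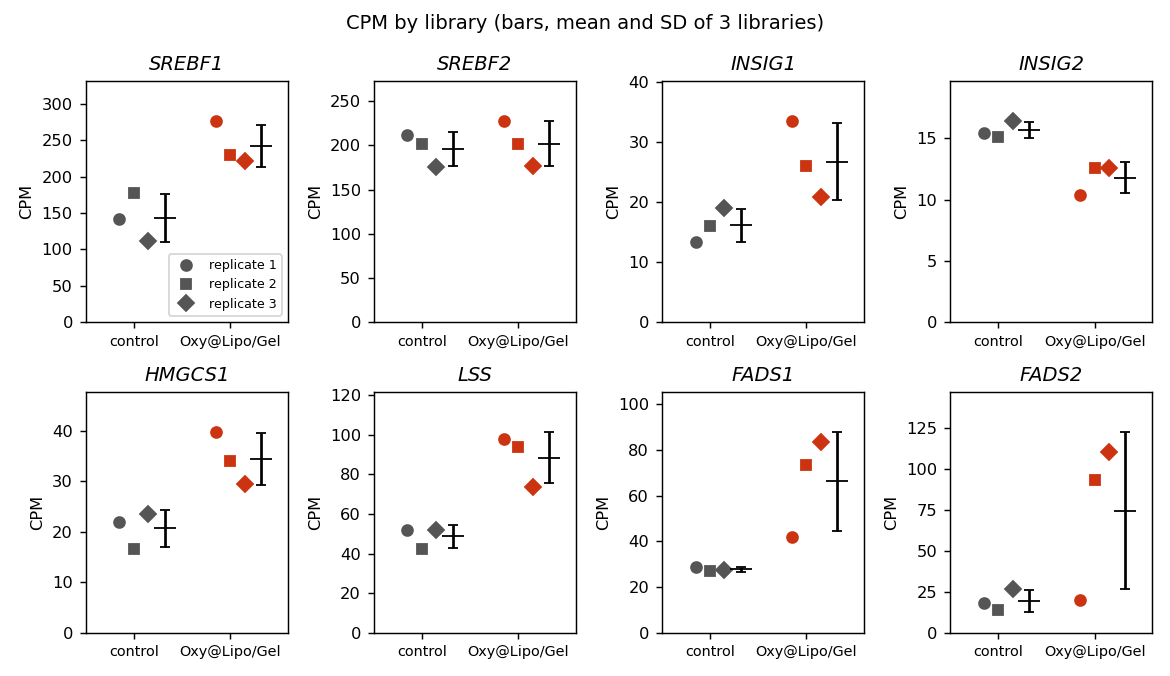
CPM (y axis, from 0) of 8 genes in each library, control in grey and Oxy@Lipo/Gel in red, with the replicate number as the symbol; black bars are the mean and SD of 3 libraries. SREBF2 overlaps between groups while SREBF1, INSIG1, HMGCS1, LSS and FADS1 lie higher in all Oxy@Lipo/Gel libraries, and for FADS2 Oxy@Lipo/Gel replicate 1 (20.1 CPM) lies among the controls.

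In the mevalonate arm the entry enzyme and a later kinase differed in opposite directions. HMGCS1, which joins acetyl-CoA and acetoacetyl-CoA into HMG-CoA, measured 21.9, 16.6 and 23.5 CPM in the controls and 39.8, 34.1 and 29.4 CPM in the Oxy@Lipo/Gel group. All Oxy@Lipo/Gel libraries lay above the controls (log2 fold change 0.73 ± 0.19, edgeR adjusted p = 0.111). PMVK, the kinase that acts on phosphomevalonate, measured 49.5, 66.7 and 49.8 CPM in the controls and 33.7, 38.2 and 39.1 CPM in the Oxy@Lipo/Gel group. Here every Oxy@Lipo/Gel library lay below the controls (log2 fold change -0.58 ± 0.17, edgeR adjusted p = 0.127).

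FDPS, which makes farnesyl diphosphate, had the highest level of the 31 genes per length. It measured 76.8 ± 25.0 FPKM in the controls and 54.8 ± 9.91 FPKM in the Oxy@Lipo/Gel group (fragments per kilobase of gene, scaled to the library total, as the authors deposited them). In CPM it was 125, 85.4 and 136 in the controls and 90.9, 76.0 and 77.6 in the Oxy@Lipo/Gel group. Control replicate 2 was the low control and lay below Oxy@Lipo/Gel replicate 1, so the groups overlapped (log2 fold change -0.50 ± 0.21, edgeR adjusted p = 0.214). Between these, the mevalonate kinase MVK and the decarboxylase MVD had log2 fold changes of -0.05 ± 0.18 and -0.07 ± 0.13. IDI1, the isomerase of the isoprenoid unit, measured 15.6 ± 3.32 and 19.0 ± 2.40 CPM, a log2 fold change of 0.28 that was 0.11 without control replicate 2. The median over the 6 genes of this arm was -0.06.

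Genes of the sterol arm differed in both directions. Among them FDFT1, SQLE, LSS and CYP51A1, which make squalene, oxidise it, close the ring and take off the first methyl group, had log2 fold changes above 0. LSS, the ring-closing enzyme lanosterol synthase, had the smallest p of the 31. It measured 52.1, 42.1 and 51.9 CPM in the controls and 98.0, 93.7 and 73.6 CPM in the Oxy@Lipo/Gel group, which put all Oxy@Lipo/Gel libraries well above the controls. Its log2 fold change was 0.86 ± 0.17 (edgeR adjusted p = 0.0677, DESeq2 adjusted p = 0.000351).

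SQLE, the squalene epoxidase that acts just before LSS, measured 13.2 ± 5.11 CPM in the controls and 26.0 ± 7.43 CPM in the Oxy@Lipo/Gel group. The groups were parted only narrowly, by 17.8 CPM in control replicate 3 and 17.9 CPM in Oxy@Lipo/Gel replicate 3 (log2 fold change 0.98 ± 0.36, edgeR adjusted p = 0.177). FDFT1, squalene synthase, measured 74.2 ± 16.0 and 86.6 ± 16.9 CPM, and CYP51A1, the lanosterol demethylase, 22.8 ± 3.82 and 30.0 ± 11.6 CPM. MSMO1, the sterol methyl oxidase, measured 24.1 ± 8.44 and 37.1 ± 6.96 CPM. These last 3 genes overlapped between groups. Their log2 fold changes of 0.22, 0.40 and 0.62 were 0.05 for FDFT1 and 0.36 for MSMO1 without control replicate 2, and 0.09 for CYP51A1 when Oxy@Lipo/Gel replicate 1 was left out.

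Several enzymes that follow in the same arm lay lower. HSD17B7, the keto-sterol reductase, measured 18.1, 19.3 and 17.0 CPM in the controls and 13.0, 12.5 and 10.9 CPM in the Oxy@Lipo/Gel group. Its libraries were tight within groups and did not overlap (log2 fold change -0.58 ± 0.16, edgeR adjusted p = 0.117). EBP, the sterol isomerase, measured 45.5 ± 2.34 and 33.6 ± 4.91 CPM without overlap (log2 fold change -0.44 ± 0.15, edgeR adjusted p = 0.162). NSDHL, which works beside MSMO1 and HSD17B7 in demethylation, measured 50.7 ± 5.39 and 38.5 ± 7.70 CPM, again without overlap.

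The reductase TM7SF2 measured 32.8 ± 12.5 and 24.4 ± 1.67 CPM, with the highest value, 47.0 CPM, in control replicate 3. Its log2 fold change of -0.43 became -0.08 without that library. The last enzymes, SC5D and DHCR7, had log2 fold changes of 0.21 ± 0.28 and -0.23 ± 0.31, and both came close to 0 or past it without control replicate 2 (-0.02 and 0.03). Over the 11 genes of the sterol arm 6 log2 fold changes lay above 0 and 5 below, with a median of 0.21, which was 0.03 with control replicate 2 left out and 0.06 with Oxy@Lipo/Gel replicate 1 left out. STARD4, a sterol carrier between membranes, measured 4.61, 2.44 and 4.28 CPM in the controls and 7.10, 6.83 and 5.52 CPM in the Oxy@Lipo/Gel group. These groups did not overlap (log2 fold change 0.77 ± 0.31, edgeR adjusted p = 0.199).

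All 3 genes of fatty acid synthesis had log2 fold changes above 0, and none had groups apart. ACLY, which makes cytosolic acetyl-CoA from citrate, measured 103, 77.3 and 104 CPM in the controls and 125, 117 and 101 CPM in the Oxy@Lipo/Gel group (log2 fold change 0.27 ± 0.18, edgeR adjusted p = 0.403, and 0.14 without control replicate 2). ACACA, the carboxylase that makes malonyl-CoA, measured 30.5 ± 4.63 and 33.9 ± 3.29 CPM, and its log2 fold change of 0.15 was 0.02 without control replicate 3. FASN, fatty acid synthase, measured 65.7, 72.5 and 91.6 CPM in the controls and 98.4, 158 and 88.6 CPM in the Oxy@Lipo/Gel group. Oxy@Lipo/Gel replicate 2 was far the highest, and control replicate 3 lay above Oxy@Lipo/Gel replicate 3 (log2 fold change 0.59 ± 0.26, edgeR adjusted p = 0.241). The log2 fold change was 0.36 with Oxy@Lipo/Gel replicate 2 left out.

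Within each group FASN was highest in the library with the most fat markers. The 7 adipocyte markers in the table summed to 438 CPM in control replicate 3 and 488 CPM in Oxy@Lipo/Gel replicate 2, the highest libraries of their groups for FASN too. In the other libraries the sum was 51.7 and 59.9 CPM in the controls and 116 and 147 CPM in the Oxy@Lipo/Gel group. Among these, FASN ran the other way within each group. Oxy@Lipo/Gel replicate 1, with 116 CPM of markers, had more FASN (98.4 CPM) than replicate 3 (88.6 CPM) or control replicate 3 (91.6 CPM). ADIPOQ, the adipocyte hormone adiponectin, was at 67.5 and 86.8 CPM in control replicate 3 and Oxy@Lipo/Gel replicate 2. Elsewhere it was at 0.957 to 9.44 CPM, and no marker of the list was at 0 in any library. The part of fat cells in the FASN values was not tested.

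Elongation and desaturation held the largest differences. FADS1, the delta-5 desaturase of polyunsaturated fatty acids, measured 28.9, 27.0 and 27.6 CPM in the controls and 42.0, 73.4 and 83.5 CPM in the Oxy@Lipo/Gel group. The controls were nearly equal, and every Oxy@Lipo/Gel library lay above them (log2 fold change 1.25 ± 0.26, edgeR adjusted p = 0.0737). FADS2, the delta-6 desaturase that acts earlier in the same route, measured 18.1, 13.8 and 26.7 CPM in the controls and 20.1, 93.3 and 110 CPM in the Oxy@Lipo/Gel group. Oxy@Lipo/Gel replicate 1 lay within the control range and the other Oxy@Lipo/Gel libraries far above it (log2 fold change 1.93 ± 0.61, edgeR adjusted p = 0.143).

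With Oxy@Lipo/Gel replicate 1 left out, FADS1 and FADS2 were the only 2 of the 31 genes that passed in edgeR, as higher, where 2.74% of all genes tested in that fit were called higher. Their log2 fold changes were then 1.49 and 2.38 (edgeR adjusted p = 0.0196 and 0.0242). The count ratio of FADS2 to FADS1 overlapped between groups, at 0.511 to 0.967 in the controls and 0.478 to 1.32 in the Oxy@Lipo/Gel group (two-sided exact permutation p = 0.4, and 0.4 adjusted over the 3 ratios). FADS1 and FADS2 are neighbours that overlap in the rhesus annotation used for names, and the strand used in counting is not given, so they may share counts.

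Oxy@Lipo/Gel replicates 2 and 3, the highest in FADS2, were also the highest in smooth muscle genes. The 8 smooth muscle markers, all in the table and none at 0, summed to 688 to 2095 CPM in the controls and 1450 CPM in Oxy@Lipo/Gel replicate 1. In Oxy@Lipo/Gel replicates 2 and 3 they summed to 12099 and 16183 CPM. The controls ran the other way. FADS2 was at 26.7 CPM in control replicate 3, which had the lowest marker sum (688 CPM). It was at 18.1 CPM in control replicate 1, which had the highest control sum (2095 CPM). FADS1 in Oxy@Lipo/Gel replicate 1 (42.0 CPM) lay above all controls, while the marker sum there lay within the control range. The part of muscle in the FADS1 and FADS2 values was not tested.

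The other genes of this group were milder. SCD, the delta-9 desaturase that makes oleate, measured 28.3 ± 12.8 and 38.2 ± 2.84 CPM, with 16.0 CPM in control replicate 3, and its log2 fold change of 0.44 was 0.14 without that library and 0.81 without control replicate 2. ELOVL5, the elongase of polyunsaturated chains, measured 87.3 ± 22.1 and 130 ± 37.8 CPM, and ELOVL6, the elongase of palmitate, 3.12 ± 0.538 and 3.99 ± 0.443 CPM. The log2 fold change of ELOVL5 was 0.57, and 0.37 without control replicate 2, and that of ELOVL6 was 0.36, and 0.22 without control replicate 3. ELOVL6 had groups apart, by 3.57 against 3.63 CPM, and the lowest level per length of the 31 genes, at 0.475 ± 0.0843 FPKM in the controls and 0.630 ± 0.118 FPKM in the Oxy@Lipo/Gel group. All 5 genes of the group had log2 fold changes above 0, with a median of 0.57, which was 0.81 with control replicate 2 left out and 0.79 with Oxy@Lipo/Gel replicate 3 left out.

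**Figure D3:**
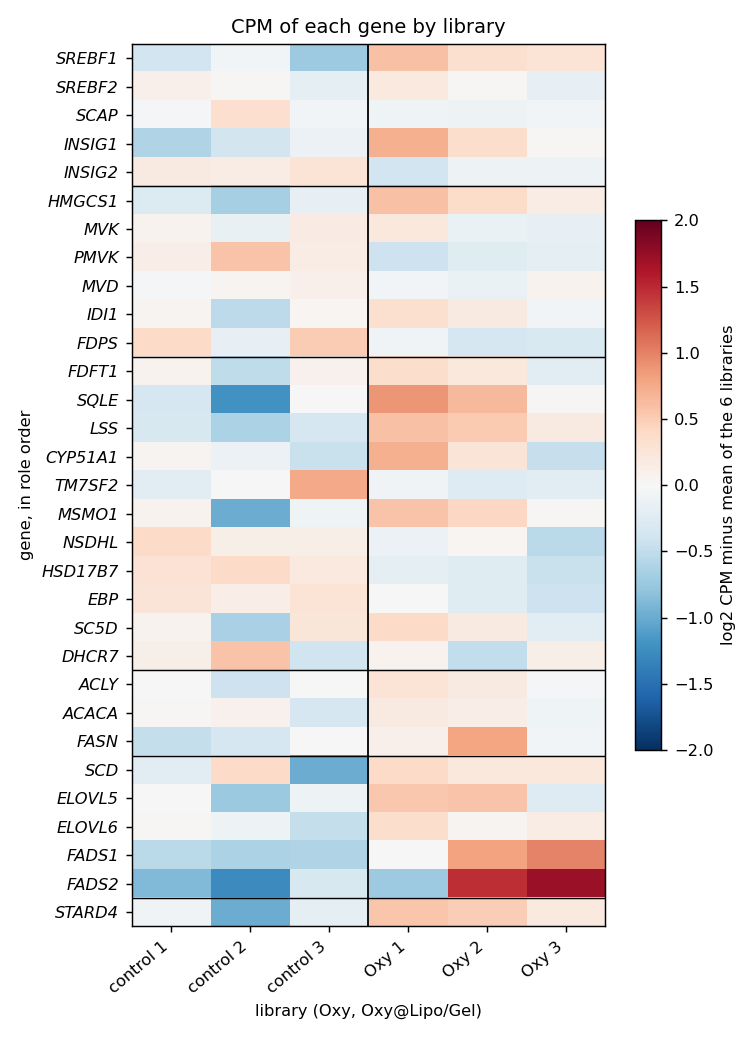
Log2 CPM of each gene in each library, as the difference from that gene's mean over the 6 libraries (colour scale), with genes in role order and lines between roles. SQLE, LSS and MSMO1 are reddest in Oxy@Lipo/Gel replicate 1 and bluest in control replicate 2, whereas FADS1 and FADS2 are reddest in Oxy@Lipo/Gel replicates 2 and 3.

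Replicate 1 of that group was the highest of all 6 libraries for 16 of the 31 genes, or 51.6%, and for 16.6% of all tested genes. For 18 of the 31 genes, or 58.1%, replicate 1 was the highest and replicate 3 the lowest of the Oxy@Lipo/Gel libraries, and for 28.0% of all tested genes. SQLE is an example, at 32.5, 27.6 and 17.9 CPM in replicates 1, 2 and 3. SCD, the delta-9 desaturase, was among the 18. FADS1 and FADS2 had the reverse order, as did PMVK of the mevalonate arm.

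At the other end, control replicate 2 was the lowest of all libraries for 12 of the 31 genes (38.7%, against 26.4% of all tested genes). SQLE was at 7.67 CPM there and at 14.0 and 17.8 CPM in the other controls, and MSMO1 was at 14.5 CPM against 30.5 and 27.3 CPM. The 7 multiciliated-cell markers in the table, none at 0, summed to 867 CPM in control replicate 2 and to 2043 CPM in Oxy@Lipo/Gel replicate 3. In the other 4 libraries they summed to 3915 to 4806 CPM. The part of ciliated epithelium in these values was not tested. Submucosal gland markers separated the groups, with a summed level of 657 to 1637 CPM in the controls and 9842 to 29846 CPM in the Oxy@Lipo/Gel group for the 10 markers. Of these, ODAM was at 0 in control replicates 1 and 2 and BPIFB2 in control replicates 1 and 3. LYZ and DMBT1 had the highest levels in the Oxy@Lipo/Gel group, with means of 10079 and 5963 CPM. Of the 9 gland markers tested, 4 passed in edgeR as higher and 8 had groups apart. Of all 18676 genes tested, 159 passed as higher and 12.2% had groups apart on the higher side, which also applies to the marker lists below. SLC12A2 overlapped between groups, with a log2 fold change of -0.2. The sum of the gland markers, and each of them except MUC5B, PIP and SLC12A2, was highest in Oxy@Lipo/Gel replicate 3. As the 18 genes counted above were picked partly for being lowest in that library within its group, their order is no separate result. Cartilage markers separated the groups too. The 8 chondrocyte markers, all tested and none at 0, summed to 54.4 to 91.2 CPM in the controls. In Oxy@Lipo/Gel replicates 1, 2 and 3 they summed to 508, 433 and 246 CPM, the order by which the 18 genes were picked. By marker, ACAN, COL11A1, HAPLN1 and COMP had that order, and CNMD was at 14.8 CPM in both replicates 2 and 3. COL2A1, MATN3 and SOX9 had another order. Of the 8 chondrocyte markers 3 passed in edgeR as higher, and 7 had groups apart. Of the 8 markers of B and plasma cells, none at 0, 5 passed as higher and 6 had groups apart, though their summed levels overlapped, at 169 to 306 CPM in the controls and 155 to 357 CPM in the Oxy@Lipo/Gel group. The 8 markers of basal and suprabasal epithelium, none at 0, summed to 2147 to 11246 CPM and 1572 to 3672 CPM, and 0 passed. At an unadjusted p under 0.05 in edgeR 3 of them were lower, where 12.6% of all tested genes were. The part of gland, cartilage, B cells and basal epithelium in the group differences was not tested.

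**Figure D4:**
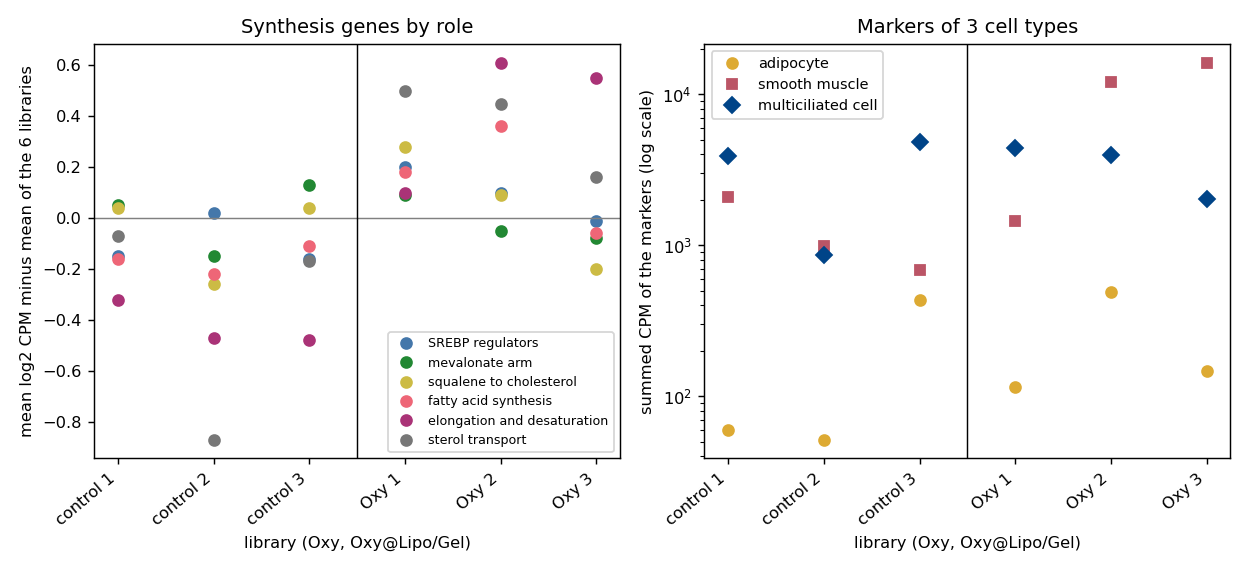
Left, mean log2 CPM of the genes of each role in each library, as the difference from the mean of the 6 libraries; right, summed CPM of the adipocyte, smooth muscle and multiciliated-cell markers (log axis). The mean of the elongation and desaturation genes is highest in Oxy@Lipo/Gel replicates 2 and 3, where smooth muscle markers sum to 12099 and 16183 CPM. Within this role SCD and ELOVL6 are highest in other libraries, and ELOVL5 in Oxy@Lipo/Gel replicate 3 (86.0 CPM) lies below control replicates 1 and 3 (103 and 96.5 CPM). The mean of the squalene-to-cholesterol genes is highest in Oxy@Lipo/Gel replicate 1.

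Genes around the pathway were taken from 5 lists with 57 tested genes, and 0 passed in edgeR in either direction (5 higher and 5 lower at an unadjusted p under 0.05, or 8.77% each, against 10.7% and 12.6% of all tested genes). The genes that process or degrade SREBPs and their partners had a median log2 fold change of 0.06, and 0 of 9 passed. With control replicate 2 left out that median was -0.07, and with Oxy@Lipo/Gel replicate 3 left out 0.20. RNF145, a ubiquitin ligase of the endoplasmic reticulum that acts on SCAP in mouse, measured 286 ± 109 CPM in the controls and 138 ± 27.6 CPM in the Oxy@Lipo/Gel group without overlap (edgeR adjusted p = 0.138). AUP1, a degradation factor found on lipid droplets, measured 147 ± 24.9 and 108 ± 11.6 CPM.

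Other lipogenic genes had a median of 0.03, which was 0.25 without control replicate 3, and 0 of 20 passed, with 10 log2 fold changes above 0 and 10 below. ACSL4, which activates arachidonic acid, measured 108, 181 and 59.3 CPM in the controls and 44.7, 35.6 and 50.0 CPM in the Oxy@Lipo/Gel group, with a wide spread among controls but no overlap (log2 fold change -1.42 ± 0.40, edgeR adjusted p = 0.121). ELOVL7, an elongase of very long chains, measured 5.06 ± 1.05 and 2.29 ± 0.457 CPM (edgeR adjusted p = 0.105). On the other side, MID1IP1, a partner of acetyl-CoA carboxylase, and SCD5, a second delta-9 desaturase, measured 1.91-fold and 1.72-fold higher without overlap (edgeR adjusted p = 0.168 and 0.163).

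Genes of sterol uptake, storage and trafficking had a median of 0.10, and 0 of 10 passed. LIPA, the lysosomal lipase that frees cholesterol from its esters, came nearer to the threshold than any other gene of the 5 lists or of the 31. It measured 14.1, 11.8 and 15.8 CPM in the controls and 27.9, 27.4 and 24.3 CPM in the Oxy@Lipo/Gel group. Its groups were far apart for their spread (log2 fold change 0.93 ± 0.17, edgeR adjusted p = 0.0558, DESeq2 adjusted p = 3.22e-05). NPC2, a lysosomal cholesterol carrier, measured 82.7 ± 13.6 and 96.2 ± 7.17 CPM.

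Sterol efflux genes and targets of the sterol sensor LXR had a median of 0.04, log2 fold changes from -0.15 to 0.44 and 0 of 9 passed. The median was 0.18 without control replicate 2. In this list MYLIP, a ligase for lipoprotein receptors, measured 68.2 ± 8.03 and 85.6 ± 33.4 CPM and the sterol exporter ABCG1 30.8 ± 5.15 and 33.4 ± 2.75 CPM. In the list of triglyceride synthesis and droplets 0 of 9 passed, with a median of 0.04 that became 0.54 without control replicate 3, the control library with the most fat markers. The droplet coat gene PLIN3 measured 20.8 ± 3.23 and 30.7 ± 2.68 CPM without overlap (edgeR adjusted p = 0.135). AGPAT2, which makes phosphatidic acid, measured 43.0 ± 12.7 and 26.1 ± 13.9 CPM. DESeq2 called 6 genes of the 5 lists, with LIPA, PLIN3 and SCD5 higher and RNF145, ELOVL7 and ACSL4 lower. These are 5.26% in each direction, against 7.47% higher and 5.87% lower of all tested genes, so neither share exceeded that of all genes. SCD5 had a DESeq2 adjusted p of 0.0302.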

How the data were processed

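RNA of tracheal tissue was sequenced in 6 libraries, grouped by their label descriptions. Poly(A) RNA, per the labels' protocols, was made into strand-specific libraries and read in pairs. Aligner, counter and gene annotation were not given in the sources used here, and GRCm38, rheMac8 and Mmul_8.0.1 are named without a role per the submitters' processing notes. The authors deposited whole-number counts per gene and an FPKM table. Where every library had at least 5 counts (17796 genes), the deposited FPKM of 17796 matched the counts through 1 gene length (within 0.01 base), so FPKM is no second measurement. Here FPKM served for levels between genes.

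Counts were tested with edgeR 4.0.16 (R 4.3.3, quasi-likelihood F test, TMM, filterByExpr with a count of 10 and a total of 15, group as the only term, Benjamini-Hochberg at 0.05). This kept 18676 genes. SE is the log2 fold change over the square root of F. A count of 3 corresponds to 0.125 to 0.204 CPM, and this covers counting error only. In counts simulated for this comparison, 200 genes were changed and 18414 were fitted. There edgeR recovered 5.97% of the 2-fold changes, 62.7% at 4-fold and 92.4% at 8-fold, and 5 of 112 calls were false. The share recovered also depends on how many genes change, so it may differ in the data, where 287 genes were called. Every pair of replicates differed beyond sampling noise (chi-square at least 46.18 per degree of freedom).

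The 31 genes, their roles and the lists were chosen with earlier results of these data known. Library values were given for the 2 genes with the smallest p in each role, the 2 with the highest mean FPKM, SREBF1, SREBF2, INSIG1 and INSIG2, and, chosen after their values were seen, LIPA and ACSL4. From each list around the pathway the 2 genes with the smallest p were named, and SCD5 and MID1IP1, named after their values were seen. PLIN2 was not found in the tables by symbol. Alternatives were other size factors and filters, DESeq2 1.42.0, limma 3.58.1 (voom, and trend on log2(FPKM + 1) or log2(FPKM + 0.1)), a fit blocked on replicate number, and fits with 1 library left out. Names were checked in the RefSeq table of T2T-MMU8v2.0, where all 31 genes were found and 14 overlap another gene. Promoter motifs were not analysed here.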

Additional observations from a re-analysis of the deposited data

How the results depend on the processing

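Of the 31 genes, 24 kept the sign of their log2 fold change in all 15 alternatives, and ELOVL6 and STARD4 in the 14 that tested them. The other 5 changed sign in at least 1. MVK (-0.05) was 0.00 with median-of-ratios size factors and with a mean of at least 10 CPM, and ran from -0.18 to 0.08 with a library left out. With a library left out SREBF2 ran from -0.05 to 0.13, MVD from -0.13 to 0.04, SC5D from -0.02 to 0.38, DHCR7 from -0.45 to 0.03 and, outside the 31, ABCG1 from -0.02 to 0.22. The count of the 31 genes called was 0 in edgeR, limma-voom and both FPKM fits with all libraries. DESeq2 called 6 higher and 1 lower, and of the genes around the pathway 3 higher and 3 lower; the cause was not tested. With a library left out the higher count ran from 0 to 2, the 2 being FADS1 and FADS2 without Oxy@Lipo/Gel replicate 1, and the lower count was 0. The median of the 31 ran from 0.10 to 0.37 and that of elongation and desaturation from 0.45 to 0.81. The latter was 0.96 with a mean of at least 10 CPM, which drops ELOVL6. On the log2(FPKM + 1) scale, which shrinks low genes, STARD4 was 0.42, ELOVL6 0.14 and ELOVL7 -0.48. Over all genes 287 were called, 183 with library totals only, 6 with a mean of at least 10 CPM, 2492 by DESeq2, and 0 to 628 with a library left out. With the replicate block edgeR called 0 genes (2866 at an unadjusted p under 0.05), and 0 of the 31. Whether libraries of the same number were paired is not known. Deviations of same-numbered libraries correlated at 0.234, -0.35 and -0.162. Those of other-numbered libraries ranged as widely, from -0.3 to 0.37, so the correlations cannot decide it. Other size factors shifted the median of all genes by no more than 0.05. At this depth and spread, changes of 2-fold were seldom recovered in simulated counts with 200 changed genes. The share may differ where another number of genes changes.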
